A study of Homo sapiens with 6 samples.

Results

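The genes described here encode feedback inhibitors of the ERK pathway: the phosphatases DUSP4, DUSP5, DUSP6 and DUSP7 and the adaptor proteins of the Sprouty and SPRED families. The set was fixed by name as 10 genes, and the 6 that had a feature in the array annotation used are the members described, among 14884 genes tested. These were DUSP4, DUSP5, DUSP6, DUSP7, SPRY2 and SPRY4. SPRY1, SPRED1, SPRED2 and SPRED3 were not analysed here. RNA came from HCT-8, a human colon cancer line grown in DMEM medium, carrying either a short hairpin RNA (shRNA) plasmid against the pseudokinase gene TRIB3 or a control hairpin plasmid, with 3 Affymetrix arrays for each label, TRIB3-shRNA or Control-shRNA. Both groups were uncloned pools of transfected cells kept under hygromycin for 14 days from 24 hours after transfection, so each group averages over many integrations, and the labels do not say whether the replicates were separate cultures or different hairpins. The p-values therefore reflect the spread among these 6 arrays alone, and that spread may be technical.

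Growth factor receptors switch on RAS, which starts the kinase chain of RAF, MEK and ERK. Active ERK enters the nucleus and induces, among its target genes, its own inhibitors. The DUSP enzymes remove the activating phosphates from ERK, DUSP4 and DUSP5 in the nucleus and DUSP6 and DUSP7 in the cytoplasm. Sprouty and SPRED proteins act further up, between the receptor and RAF, and SPRED proteins bring the RAS inhibitor neurofibromin to the membrane. In colon epithelium the pathway drives proliferation, and transcripts of these inhibitors are widely read as a gauge of its output.

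Signals are RMA values on the log2 scale, and each difference is the mean of the arrays labelled TRIB3-shRNA minus that of the arrays labelled Control-shRNA. A gene is called at a Benjamini-Hochberg adjusted p of 0.05 over all 14884 genes in limma's moderated test. The targeted gene went against the labels: TRIB3 read 8.43, 8.48 and 8.27 in the TRIB3-shRNA-labelled arrays, against 7.37, 7.14 and 7.48 in the control arrays. All directions given here follow the deposited labels. Over the genes tested, array medians ran from 5.62 to 5.67 in the TRIB3-shRNA-labelled arrays and from 5.69 to 5.70 in the control arrays. The 75th percentile ran from 7.047 to 7.149 against 7.155 to 7.235, and the SD from 1.90 to 1.94 against 1.95 to 2.00. Level and spread of the arrays thus differed between the groups without overlap, and cannot be told apart from the group. Of the genes tested, 1435 were called (9.64%), of which 33.7% were higher (484 higher, 951 lower). The higher share was 41.7% with quantile normalization (588 higher, 821 lower), 44.6% with median centring (659 higher, 818 lower) and 50.8% with centring on the 75th percentile (853 higher, 825 lower). The last of these moved the median difference of all genes from 0.04 to 0.14. All 7 measured markers of colon epithelium, among them EPCAM and KRT18, had a mean above the 25th percentile of gene means (4.33). Of the markers of other cells, 2 of 3 of fibroblasts, 2 of 4 of leukocytes and 2 of 4 of endothelium lay below it.

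Among the ERK feedback inhibitors, 3 of the 6 measured genes rose in the arrays labelled TRIB3-shRNA: DUSP4, SPRY4 and DUSP6. Over all genes 3.25% were called higher. DUSP5 and DUSP7 were higher in each array labelled TRIB3-shRNA than in each control array without passing the test, and SPRY2 overlapped between the groups. In all, 5 of the 6 were higher without overlap, as were 16.4% of all genes. In limma, 0 of the 6 fell. At an unadjusted p under 0.05, 5 were higher, beside 12.7% of all genes, and 0 were lower, beside 16.1%. No tool other than limma was run across all genes. The median difference of the 6 was 0.64, beside 0.04 over all genes.

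**Figure D1:**
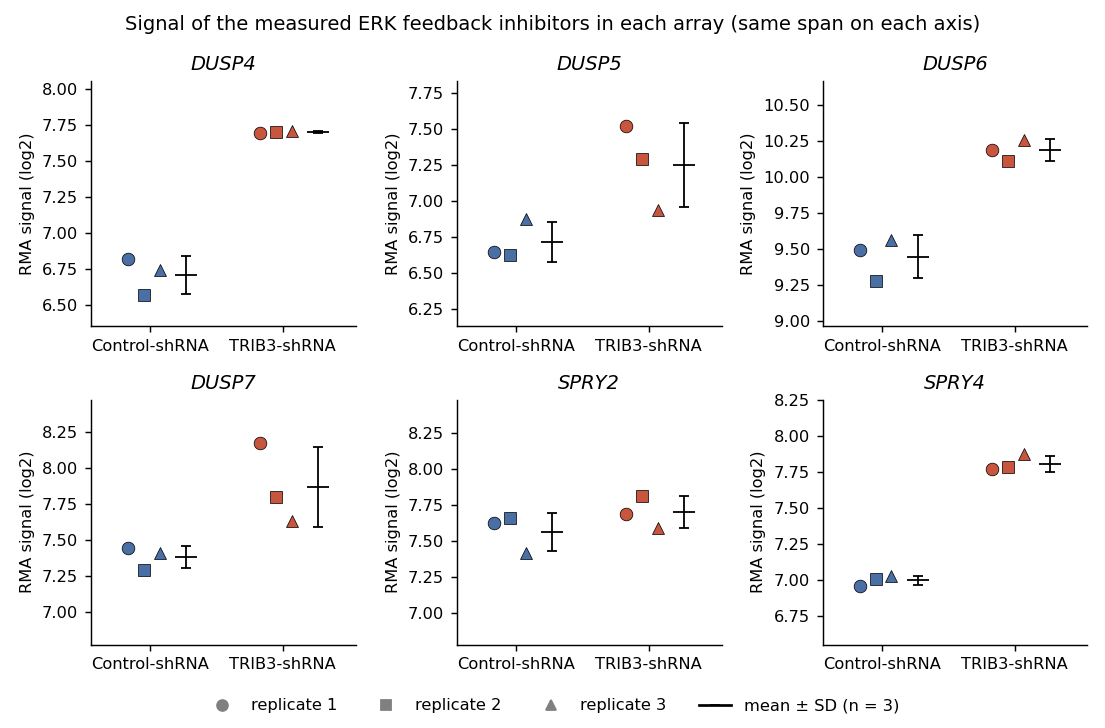
RMA signal on the log2 scale (vertical axes, all with the same span) of each measured ERK feedback inhibitor, with a point for each array, shaped by replicate number, and a bar for the group mean and SD (n = 3). The groups are well apart for DUSP4, DUSP6 and SPRY4, close for DUSP5 and DUSP7, where replicate 3 of the arrays labelled TRIB3-shRNA is the lowest of its group, and overlapping for SPRY2.

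Of the nuclear phosphatases, DUSP4, which acts on ERK and also on JNK and p38, read 7.69, 7.70 and 7.71 in the TRIB3-shRNA-labelled arrays, against 6.82, 6.57 and 6.74 in the control arrays. The arrays labelled TRIB3-shRNA lay almost on top of each other, and the groups were far apart. DUSP4 rose by 0.99 (SE 0.12, 1.98-fold, 95% interval 0.71 to 1.27, limma adjusted p = 0.00367), from 6.71 ± 0.13 to 7.70 ± 0.0076 (SD, n = 3 each). It ranked 76 among all genes ordered from the largest rise. DUSP5, which is specific to ERK, read 7.52, 7.29 and 6.94 in the TRIB3-shRNA-labelled arrays, against 6.64, 6.63 and 6.87 in the control arrays. Replicate 3 of the former and replicate 3 of the latter lay next to each other, without overlap of the groups. The difference was 0.53 (SE 0.17, 95% interval 0.15 to 0.92, limma adjusted p = 0.078) and did not pass the test. It passed without TRIB3-shRNA replicate 3, where the difference was 0.69 (limma adjusted p = 0.0187). A second, dimmer feature of DUSP5 differed by 0.28, from 4.73 to 5.003, with an adjusted p of 0.397 in the limma fit over all features. The brighter feature had a limma adjusted p of 0.161 in that fit.

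Of the cytoplasmic phosphatases, DUSP6, which binds and inactivates ERK and is among its most direct transcriptional readouts, read 10.19, 10.11 and 10.26 in the TRIB3-shRNA-labelled arrays, against 9.50, 9.28 and 9.56 in the control arrays. All 3 control arrays lay below all 3 others by a wide margin. DUSP6 rose by 0.74 (SE 0.13, 1.67-fold, 95% interval 0.45 to 1.04, limma adjusted p = 0.0133), from 9.45 ± 0.15 to 10.19 ± 0.08 (SD, n = 3 each). Its call was lost without Control-shRNA replicate 1 (limma adjusted p = 0.0594) and without Control-shRNA replicate 2 (limma adjusted p = 0.073), while the difference stayed at 0.77 and 0.66. DUSP7, a close relative of DUSP6, read 8.17, 7.80 and 7.63 in the TRIB3-shRNA-labelled arrays, against 7.44, 7.29 and 7.41 in the control arrays. Its groups did not overlap, but the spread of the arrays labelled TRIB3-shRNA (SD 0.28) was wider than that of the control arrays (SD 0.08). The difference was 0.48 (SE 0.16, 95% interval 0.13 to 0.84, limma adjusted p = 0.0851) and did not pass the test. Without TRIB3-shRNA replicate 3 it was 0.60 and passed (limma adjusted p = 0.0333).

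Of the Sprouty genes, SPRY4, whose product restrains receptor signalling ahead of RAF, read 7.77, 7.78 and 7.87 in the TRIB3-shRNA-labelled arrays, against 6.96, 7.01 and 7.03 in the control arrays. Both groups were tight and far apart. SPRY4 rose by 0.81 (SE 0.12, 1.75-fold, 95% interval 0.55 to 1.07, limma adjusted p = 0.00637), from 6.997 ± 0.03 to 7.81 ± 0.06 (SD, n = 3 each). SPRY2, which encodes a related adaptor, read 7.69, 7.81 and 7.59 in the TRIB3-shRNA-labelled arrays, against 7.62, 7.66 and 7.41 in the control arrays, and these overlapped. Its difference of 0.13 (SE 0.13, limma adjusted p = 0.536) had a 95% interval from -0.16 to 0.43, which includes 0 and ends below the lower bound of the interval of SPRY4. Within arrays, SPRY4 minus SPRY2 was 0.11 ± 0.16 in the TRIB3-shRNA-labelled arrays, against -0.57 ± 0.15 in the control arrays (SD, n = 3 each). The two-sided exact permutation test of this change of 0.68 gave p = 0.1, the smallest p that 3 arrays against 3 allow. The pair was chosen with earlier results of these data known. As no smaller p was possible, the test cannot decide whether SPRY4 and SPRY2 changed differently, and no conclusion is drawn from it.

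**Figure D2:**
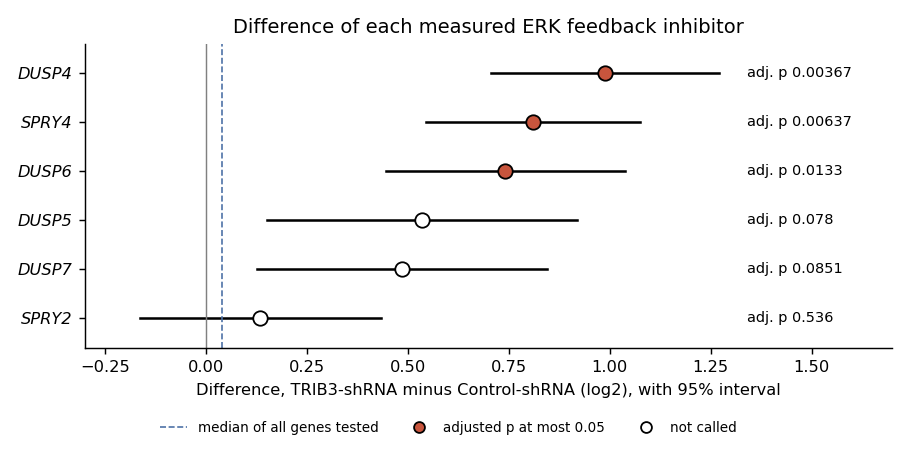
Difference between the group means on the log2 scale (horizontal axis) for each measured ERK feedback inhibitor, with limma's 95% interval as a line; filled points passed an adjusted p of 0.05 and the dashed line is the median of all genes. The intervals of DUSP4, SPRY4, DUSP6, DUSP5 and DUSP7 lie above 0, and that of SPRY2 spans it.

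ETS family factors are known carriers of ERK signals to target promoters, so the 250 bases before the RefSeq start of SPRY4 and DUSP6, which rose, and of SPRY2, which did not pass, are shown. Promoter windows of 4 of the 6 measured members were used, those of DUSP6, DUSP7, SPRY2 and SPRY4. Those of the other measured members, among them the member with the largest rise, were not used here, which does not mean that no such windows exist. The motif counts thus cover only part of the set and say nothing of the member that rose most. They lie on build GRCh38.p14 at chr5:142324248-142324497 (SPRY4), chr12:89352502-89352751 (DUSP6) and chr13:80341127-80341376 (SPRY2, the outermost of 3 annotated starts), all read 5′ to 3′ on the minus strand. The RefSeq record of SPRY4 extends beyond the start used, so its window may lie within another SPRY4 transcript. Capitals mark GGAA, the core of the ETS site, or its reverse complement TTCC.
SPRY4: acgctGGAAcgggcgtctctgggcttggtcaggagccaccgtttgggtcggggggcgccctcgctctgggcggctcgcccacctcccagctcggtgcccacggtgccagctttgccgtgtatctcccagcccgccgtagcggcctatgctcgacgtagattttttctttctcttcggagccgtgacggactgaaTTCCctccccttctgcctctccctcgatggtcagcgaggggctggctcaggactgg
DUSP6: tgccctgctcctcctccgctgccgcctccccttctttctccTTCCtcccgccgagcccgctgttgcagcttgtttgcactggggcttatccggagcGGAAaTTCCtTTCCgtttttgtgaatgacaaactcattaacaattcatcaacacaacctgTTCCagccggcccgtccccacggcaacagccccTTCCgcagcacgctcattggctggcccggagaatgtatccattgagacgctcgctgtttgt
SPRY2: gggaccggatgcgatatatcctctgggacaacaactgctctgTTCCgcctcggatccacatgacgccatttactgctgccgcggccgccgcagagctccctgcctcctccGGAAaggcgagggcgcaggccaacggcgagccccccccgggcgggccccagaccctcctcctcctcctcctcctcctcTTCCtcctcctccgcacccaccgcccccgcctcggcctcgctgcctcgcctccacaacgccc
The core occurred 2 times in the SPRY4 window, 6 times in the DUSP6 window and 3 times in the SPRY2 window shown. The windows of the other SPRY2 starts held it 4 times each, and the DUSP7 window 0 times. Of 35116 windows of the same length, 92.7% held it. The longer site CCGGAA, searched on both strands and overlapping the core, occurred 1 time in the SPRY2 window shown and 0 times in the other SPRY2 windows and in those of SPRY4, DUSP6 and DUSP7, against 14.5% of all windows. The AP-1 site TGAGTCA (4.2% of all windows) and the cyclic AMP response element TGACGTCA (1.65%) had 0 matches in any of these windows. Such matches describe the letters of these windows only.

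The calls of DUSP4 and SPRY4 were kept in all 19 alternatives, with limma adjusted p from 0.00127 to 0.0302 and from 0.00154 to 0.0436. With centring on the 75th percentile the differences were 1.09 for DUSP4, 0.91 for SPRY4 and 0.85 for DUSP6. Removing the trend of the arrays on gene span gave 0.95, 0.75 and 0.64. SPRY2 was called in 0 of the 19, with limma adjusted p from 0.259 to 0.905.

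**Figure D3:**
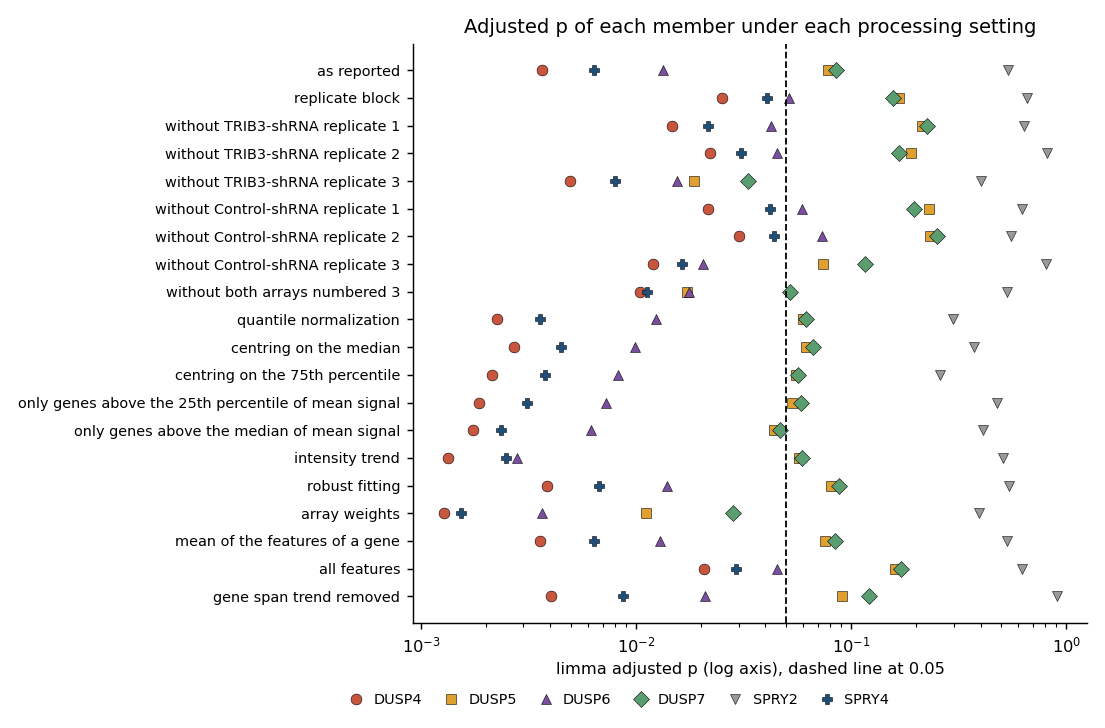
Limma adjusted p (horizontal log axis, dashed line at 0.05) of each measured ERK feedback inhibitor, one symbol per gene, as reported and under each of 19 alternatives (rows). DUSP4 and SPRY4 stay left of the line in every row, DUSP6 crosses it in 3, and DUSP5 and DUSP7 cross to the left when TRIB3-shRNA replicate 3 is left out.

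Pearson's r over the 6 arrays was 0.99 between DUSP4 and DUSP6 and 0.98 between DUSP4 and SPRY4, all of them called between the groups. For SPRY2 with each of the other 5 it was lower, from 0.37 to 0.52. With the group means taken off, r was 0.78 for DUSP4 with DUSP6 and 0.87 for DUSP5 with DUSP7, but -0.21 for DUSP4 with SPRY4, -0.74 for DUSP7 with SPRY4 and -0.82 for DUSP6 with SPRY2. These pairs were picked from all pairs of members. Each r rests on 6 arrays whose deviations sum to 0 within each group, and none was tested. Among genes above the median level, with small RNA genes, uncharacterised loci and pseudogenes left out, the 3 whose pattern over the 6 arrays was most like that of DUSP4 were DLL1, a Notch ligand (r = 0.999), the kinase gene STK39 (r = 0.998) and EIF4H (r = 0.998). Those most like SPRY4 were PTGS2, the inducible cyclooxygenase (r = 0.998), PNMA1 (r = 0.998) and MAP2K1, which encodes the ERK kinase MEK1 (r = 0.996). Of 6905 genes ranked, 200 reached r over 0.95 with DUSP4 and 170 with SPRY4. EIF4H differed by only 0.17 and was not called (limma adjusted p = 0.348), so a high r here says nothing of the size of a difference.

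Genes that feed the pathway were mixed. Called were 14.3% of the ligands, 20% of the receptors and 7.14% of the genes from adaptors to ERK and its kinases. Over all genes 9.64% were called. At an unadjusted p under 0.05 in limma, 12.7% of all genes were higher and 16.1% lower. Of 7 measured EGF family ligands, EREG rose by 1.58 (limma adjusted p = 0.00436), and 0 fell. At an unadjusted p under 0.05, 1 was higher and 1 lower. NRG2 differed by -0.42 (limma adjusted p = 0.0916) and EPGN by 0.36 (limma adjusted p = 0.462), the latter with means of 3.55 and 3.19 below the 25th percentile of gene means. Of 10 measured receptor tyrosine kinases, FGFR4, a receptor of fibroblast growth factors, rose by 1.06 (limma adjusted p = 0.0209). MET, the receptor of hepatocyte growth factor, fell by 1.51 on the log2 scale (limma adjusted p = 0.00877). FGFR2 differed by -0.42 (limma adjusted p = 0.195) and passed without TRIB3-shRNA replicate 3 (limma adjusted p = 0.0346). IGF1R, the receptor of insulin-like growth factors, differed by -0.38 (limma adjusted p = 0.089), with no overlap between the groups. EGFR differed by 0.15 (limma adjusted p = 0.598) and ERBB3 by 0.33 (limma adjusted p = 0.102), and these did not pass either. Of 14 measured genes from the adaptors to ERK and the kinases it activates, MKNK2, which phosphorylates the cap-binding factor eIF4E, rose by 0.81 (limma adjusted p = 0.0177), and 0 fell. At an unadjusted p under 0.05, 5 were higher and 4 lower. The count of 1 call became 0 when replicate 1 or 2 of either group was left out and 5 without TRIB3-shRNA replicate 3, a fit in which 18.1% of all genes were called.

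MAP2K1 read 9.10, 9.07 and 9.11 in the TRIB3-shRNA-labelled arrays, against 8.70, 8.70 and 8.69 in the control arrays. Its groups were narrow and apart, but the difference of 0.40 did not pass (limma adjusted p = 0.0584). It passed under 8 of 19 alternatives, quantile normalization and both centrings among them (limma adjusted p = 0.0421, 0.0427 and 0.034). The adaptor gene SHC1 was 0.50 higher (limma adjusted p = 0.052) and the RAS exchange factor gene SOS1 differed by -0.83 (limma adjusted p = 0.0714), and both passed without TRIB3-shRNA replicate 3 (limma adjusted p = 0.048 and 0.0321). SHC1 also passed without Control-shRNA replicate 3 (limma adjusted p = 0.0346). SOS2, a relative of SOS1, differed by -0.68 (limma adjusted p = 0.133), and passed without TRIB3-shRNA replicate 3 (limma adjusted p = 0.0354). MAPK3, which encodes ERK1, differed by -0.24 (limma adjusted p = 0.412).

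**Figure D4:**
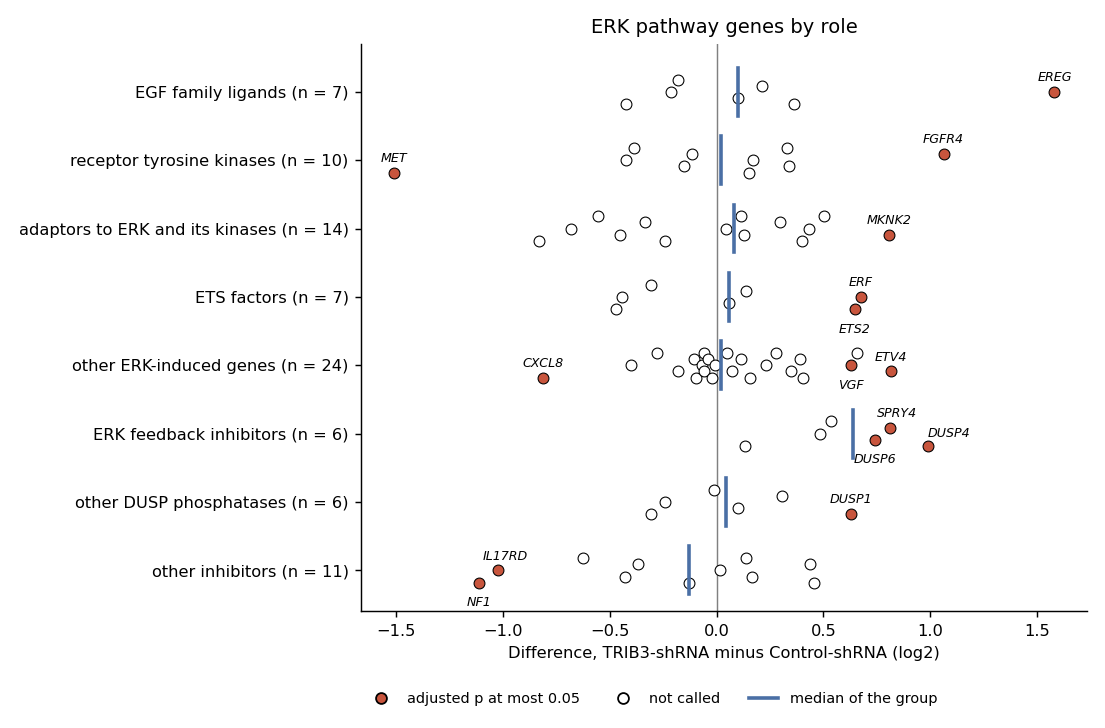
Difference between the group means on the log2 scale (horizontal axis) for every measured gene of each role in the ERK pathway (rows, with the number of measured genes); filled, named points passed an adjusted p of 0.05 and blue bars are medians. The ERK feedback inhibitors have a median of 0.64, while the other rows have medians from -0.13 to 0.10.

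Of 24 other measured genes that ERK signalling is known to induce, 2 rose, 1 fell and 21 did not pass, or 12.5% called beside 9.64% of all genes. Their median difference was 0.02, below the 0.04 of all genes. At an unadjusted p under 0.05, 6 of the 24 were higher, beside 12.7% of all genes, and 2 were lower, beside 16.1%. ETV4, an ETS factor of the PEA3 group, rose by 0.81 (limma adjusted p = 0.028) and VGF, which encodes a secreted peptide precursor, by 0.63 (limma adjusted p = 0.0378). CXCL8, a neutrophil chemokine gene, fell by 0.81 on the log2 scale (limma adjusted p = 0.0125), with a mean of 4.22 in the arrays labelled TRIB3-shRNA, below the 25th percentile of gene means, so the size of its fall is not settled. FOSL1, a component of AP-1, was 0.66 higher (limma adjusted p = 0.0802) and passed without TRIB3-shRNA replicate 3 (limma adjusted p = 0.0269). The cytokine gene LIF was 0.41 higher (limma adjusted p = 0.0827). ETV5, a relative of ETV4, and the immediate early gene EGR1, both named after their values were seen, differed by 0.05 and -0.40 (limma adjusted p = 0.875 and 0.107). The count of 3 was not firm: it was 0 without TRIB3-shRNA replicate 2, and also without Control-shRNA replicate 1 or without Control-shRNA replicate 2, 1 when TRIB3-shRNA replicate 1 was left out, and 7 with both arrays numbered 3 left out. Of 7 measured ETS factors, ETS2 rose by 0.65 (limma adjusted p = 0.021) and ERF, a repressor that ERK inactivates, by 0.68 (limma adjusted p = 0.0342), and 0 fell. At an unadjusted p under 0.05, 2 were higher and 2 lower. Of these ETS factors 28.6% were called, beside 9.64% of all genes. ETS1 differed by -0.47 (limma adjusted p = 0.119) and ELF1 by -0.44 (limma adjusted p = 0.0883), and ELF1 passed without TRIB3-shRNA replicate 3 (limma adjusted p = 0.0335).

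Other inhibitors of the pathway differed in both directions. Called were 16.7% of the DUSP phosphatases outside the set and 18.2% of the remaining inhibitors, beside 9.64% of all genes. At an unadjusted p under 0.05 in limma, 12.7% of all genes were higher and 16.1% lower. Of 6 measured DUSP phosphatases outside the set, most of which act chiefly on JNK and p38, DUSP1 rose by 0.63 (limma adjusted p = 0.0207) and 0 fell, with 1 higher and 1 lower at an unadjusted p under 0.05. DUSP2 and DUSP8 differed by 0.31 and -0.31 (limma adjusted p = 0.291 and 0.148). DUSP9, named after its value was seen, differed by 0.10 (limma adjusted p = 0.64), with overlap between the groups. Of 11 measured genes for other inhibitors of receptor, RAS or ERK signalling, 2 fell and 0 rose, with 2 higher and 4 lower at an unadjusted p under 0.05. IL17RD, also called SEF, an inhibitor of fibroblast growth factor signalling to ERK, read 5.24, 5.41 and 5.58 in the TRIB3-shRNA-labelled arrays, against 6.36, 6.49 and 6.45 in the control arrays. It fell by 1.02 on the log2 scale (SE 0.13, limma adjusted p = 0.00437) and kept its call in all 19 alternatives. NF1, which encodes the RAS inhibitor neurofibromin, read 6.90, 7.47 and 7.67 in the TRIB3-shRNA-labelled arrays, against 8.62, 8.62 and 8.13 in the control arrays, and fell by 1.11 on the log2 scale (SE 0.22, limma adjusted p = 0.0195). PEA15, which holds ERK in the cytoplasm, was 0.46 higher (limma adjusted p = 0.0523), and passed without TRIB3-shRNA replicate 3 (limma adjusted p = 0.0334). RASA2, which inactivates RAS, differed by -0.62 (limma adjusted p = 0.164) and passed without TRIB3-shRNA replicate 3 (limma adjusted p = 0.0237). Leaving out that array gave 6 calls among the 11 in place of 2, with 18.1% of all genes called. The count was 1 without TRIB3-shRNA replicate 2 and when replicate 1 or 2 of the controls was left out.

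Several of these calls were lost in fits with fewer arrays. DUSP1, ETV4, VGF, ETS2, ERF, FGFR4 and MKNK2 each lost theirs when replicate 1 or 2 of either group was left out, with limma adjusted p from 0.0584 to 0.154. In those 4 fits the count over all genes fell from 1435 to between 199 and 507. With single arrays left out, the difference ran from 0.57 to 0.68 for DUSP1, from 0.73 to 0.97 for ETV4, from 0.54 to 0.73 for VGF, from 0.57 to 0.70 for ETS2, from 0.57 to 0.80 for ERF, from 0.86 to 1.23 for FGFR4 and from 0.74 to 0.92 for MKNK2. NF1 and CXCL8 lost theirs when TRIB3-shRNA replicate 2 was left out (limma adjusted p = 0.0573 and 0.0562), without Control-shRNA replicate 1 (0.0872 and 0.0595) and without Control-shRNA replicate 2 (0.0928 and 0.0608). MET lost its call without Control-shRNA replicate 2 (limma adjusted p = 0.0535).

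The summed signal of the epithelial markers stood apart between the same groups, from 12.29 to 12.53 on the log2 scale in the control arrays and from 12.57 to 12.66 in the arrays labelled TRIB3-shRNA. One of the 7, the intestinal transcription factor gene CDX1, rose by 0.69 (limma adjusted p = 0.0372). Its call was lost when replicate 1 or 2 of either group was left out (limma adjusted p from 0.101 to 0.148). Of the 7 differences, 5 were above 0, while VIL1 differed by -0.44 (limma adjusted p = 0.0631), lower without overlap of the groups. The sum was taken over unlogged signals, so bright genes such as KRT18 and EPCAM weigh most in it. Summed markers of fibroblasts, leukocytes and endothelium overlapped between the groups. The part of any of these in the differences of the ERK feedback inhibitors was not tested, and fewer cells of a kind cannot be told apart from less RNA per cell in such bulk samples.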

How the data were processed

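The 6 arrays were hybridised with biotin-labelled RNA of HCT-8 cells. The authors deposited log2 values made with RMA (background correction, quantile normalization and probe summary) in the program Affymetrix Expression Console, version 1.4.1, per the submitters' processing notes. That the scale is log2 follows from the range of the values. Scanner files were not used here, and the sources used here name no genome build.

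Of 53617 features, 16098 were paired with 1 gene symbol and 37519 with none; all 16098 matched RefSeq gene identifiers of assembly GRCh38.p14, used for names and for the span alternative. A gene with several features was represented by the brightest, leaving 14884. Groups came from sample titles. A linear model with a group term (limma 3.58.1, lmFit and eBayes, under R 4.3.3; two-sided, Benjamini-Hochberg) was run on all genes and tested on simulated data. The 19 alternatives changed the block, arrays, scaling, filter, variance model, feature rule or span trend. Motifs were searched with Python 3.11.15 in RefSeq windows.

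The members, gene lists and alternatives were chosen with earlier results of these data known. Named genes were all members, called genes of each list, the largest uncalled differences of each list (up to 2), any of the ligands, receptors and core genes, and the 3 genes most like DUSP4 and SPRY4, where pseudogenes were left out beyond the rule first written, with the same genes named either way. The number of arrays limits the precision. No pair of arrays shared more than 0.127% of values.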

Additional observations from a re-analysis of the deposited data

How the results depend on the processing

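All values in this section are from limma. The count of 1435 called genes was 402 with the replicate number as a block, 3392 without both arrays numbered 3 and 4099 with array weights, and ran from 199 to 2696 when each array was left out in turn. Of the 6 ERK feedback inhibitors 3 were called; the count was 5 with only genes above the median of mean signal and 5 with array weights, and ran from 2 to 5 when each array was left out in turn. The 2 genes added were DUSP5 and DUSP7, and the gene lost was DUSP6. The filter left 7442 genes, to which the model was refitted before the adjustment. Calls over all genes moved the same way in these fits. Beside 1435 of 14884, they were 1920 of 7442 with the filter and 4099 with array weights. Without TRIB3-shRNA replicate 3, the array whose removal gave 5 members, they were 2696. Without Control-shRNA replicate 1 or 2, where 2 members were called, they were 261 and 199. The cause of these changes in the count was not tested.

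The replicate numbers did not pair the arrays: deviations from the group means of same-numbered arrays correlated at -0.20, -0.09 and -0.43, and 0 of 6 arrays correlated best with their own number. With the replicate number as a block the members called were DUSP4 and SPRY4, while DUSP6 had an adjusted p of 0.0514.

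Of 789 values for 42 genes under 19 alternatives, 660 kept their direction and side of the threshold, 60 lost a call, 66 gained one and 3 turned direction. Those 3 were of uncalled genes: MAPK3 was at 0.038 without both arrays numbered 3, and ETV5 ranged from -0.09 to 0.13 when single arrays were left out, at -0.092 without TRIB3-shRNA replicate 2 and at -0.07 without replicate 2 of the controls. Counts for the pathway lists, most of them of 1 to 3 genes, moved by over 1.5 times in 57 of 133 cases. Signal over background was not analysed here, which limits a dim feature such as the second one of DUSP5.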

Other observations

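SPRY3, a Sprouty gene outside the set, differed by -0.43 (limma adjusted p = 0.0685), opposite in sign to SPRY4, with no overlap between the groups. Of the 14884 genes, 2321 were lower without overlap. A second, dimmer feature of SPRY3 differed by -0.66, with an adjusted p of 0.12 in the limma fit over all features. The brighter feature had a limma adjusted p of 0.145 in that fit. SPRY3 was named after its value was seen.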
